A study of Mus musculus with 6 samples.

Results

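The genes described here encode the enzymes and carriers that burn fatty acids in mitochondria and peroxisomes, together with targets of the peroxisome proliferator-activated receptors (PPARs). They were taken as a list of 36 genes, and every probe set that the platform annotation assigns to a single such gene was used. The array held 43 probe sets of 31 of these genes, among 12488 probe sets of 8251 named genes in all. Acot2, Acsl1, Cpt1b, Hadha and Ucp2 had no probe set of their own in that annotation and were not analysed here.

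Total pancreatic RNA was measured on 6 one-colour oligonucleotide arrays, 1 mouse per array. The control group comprised 3 mice with the genotype CFTR+/+, aged 57, 56 and 57 days. The other group, called CF here, comprised 3 CFTR-/- mice, aged 57, 56 and 58 days. Cftr encodes the epithelial anion channel that is lost in cystic fibrosis. All 6 mice were male and gastrin+/-, so the controls also carried the gastrin deletion on 1 allele, and their background was 95% black6 and 5% 129Sv. Both groups were given Peptamen, a liquid peptide diet, from day 10 of life to keep the gut from obstructing. Replicates 1, 2 and 3 are the mice whose sample titles carry no suffix, the suffix B and the suffix P. The comparison asks which transcripts differ in the pancreas when Cftr is absent. In whole-tissue RNA, fewer cells of a type and less RNA per cell cannot be told apart.

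Long-chain fatty acids are first coupled to coenzyme A, passed into mitochondria by the carnitine shuttle, and shortened there by repeated turns of an oxidation cycle whose electrons enter the respiratory chain through the electron transfer flavoprotein. Very long chains are shortened first in peroxisomes, where catalase removes the hydrogen peroxide that is formed. PPAR alpha and PPAR delta are nuclear receptors activated by fatty acids, and they turn on many of these genes, most strongly in fasting liver, muscle and heart. In the pancreas most RNA comes from acinar cells.

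No member passed the threshold of the study-wide test, an adjusted p under 0.05 in limma with Benjamini-Hochberg adjustment over all 7739 probe sets bright enough to be tested. The thioesterase gene Acot1 stood furthest apart and was higher in every CF mouse, with a fold of 2.76. Etfdh and Acadl were also higher in all 3 CF mice, by 1.59-fold and 1.47-fold. Hadh was lower in all 3 CF mice, by 1.64-fold, as was catalase on its brighter probe set. Pdk4 was high in 2 CF mice and at the control level in the remaining mouse. The receptor gene Ppara and the entry enzyme Cpt1a measured nearly the same in both groups.

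PPARs bind a response element made of a repeated word with a single base between the copies, and it was searched in the 300 bases around each member's start site, from 250 bases before to 50 after it, in RefSeq sequence of build GRCm38.p6. The letters searched were AGGTCANAGGTCA and its reverse complement TGACCTNTGACCT; no other motif was searched. Promoters were given for 29 of the 36 genes, in 30 windows, and not for Acaa2, Angptl4, Cpt1b, Crat, Cyp4a10, Decr1 and Hsd17b4. With up to 2 mismatches outside the spacer, 5 of the 30 windows (16.7%) held a match, against 3.86% of all 32851 windows of the same length. With at most 1 mismatch it was 1 window, that of Fabp1, and 0 windows held the exact letters. The list was chosen in part for PPAR targets and 5 windows are few, so no enrichment is read from these shares, which were not tested. The 5 matches are shown with 8 bases on each side, since they are the places where a member's promoter resembles the element. Capitals mark the 13 bases aligned to the element, with the spacer and mismatched bases included, read 5′ to 3′ on the strand of the gene.
Fabp1 (chr6:71199804-71199832, plus strand): acaatcacTGACCTATGGCCTatatctga
Cat (chr2:103485337-103485365, minus strand): actctcagAGGTCAGAGAACAccagcagg
Echs1 (chr7:140116484-140116512, minus strand): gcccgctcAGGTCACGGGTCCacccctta
Etfa (chr9:55512300-55512328, minus strand): gcacacccTTACCTTTGCCCTactcccaa
Slc25a20 (chr9:108662134-108662162, plus strand): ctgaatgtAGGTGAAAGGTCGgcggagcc

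The matches began 67, 204, 83 and 77 bases before the start of Fabp1, Cat, Echs1 and Etfa, and 6 bases after that of Slc25a20. Those of Fabp1 and Etfa were read on the opposite strand. A match is a likeness of letters and not a site shown to be bound. The windows of Acot1, Etfdh, Acadl, Hadh and Pdk4 held no match at this stringency, which says only that these letters are not in the window. The members' windows were richer in G and C than those of all genes, with a median of 60.7% against 52.7%, and held a median of 17 CpG dinucleotides against 7. Hadha and Hadhb lie head to head, and their windows on opposite strands share 228 bases. The 250 bases before the start of Acot1 and of Hadh are given because these genes differed most in each direction by p, in lower case as no match was found.
Acot1 (chr12:84009252-84009501, plus strand): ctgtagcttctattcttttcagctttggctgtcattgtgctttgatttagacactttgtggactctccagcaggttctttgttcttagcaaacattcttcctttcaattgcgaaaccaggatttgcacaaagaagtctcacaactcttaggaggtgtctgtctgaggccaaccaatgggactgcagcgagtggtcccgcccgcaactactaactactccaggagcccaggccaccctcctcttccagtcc
Hadh (chr3:131272102-131272351, minus strand): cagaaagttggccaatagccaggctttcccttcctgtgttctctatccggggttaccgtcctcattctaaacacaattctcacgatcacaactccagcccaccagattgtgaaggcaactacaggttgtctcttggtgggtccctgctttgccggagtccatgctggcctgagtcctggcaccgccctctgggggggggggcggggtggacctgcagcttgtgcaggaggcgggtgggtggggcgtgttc

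Acot1 encodes a cytosolic thioesterase that splits acyl-CoA into free fatty acid and coenzyme A, and is a known PPAR alpha target. Its probe set (103581_at) gave 315, 289 and 300.3 in the control mice, in the order of the replicate numbers, and 777, 1335 and 553 in the CF mice in the same order, which is kept throughout. The controls lay close together, and the lowest CF mouse was well above all of them. The log2 difference was 1.46 ± 0.32 (SE, 95% interval 0.73 to 2.20, limma adjusted p = 0.21, unadjusted p = 0.0015). Without CF replicate 2, the brightest, the difference was 1.12 (adjusted p = 0.67), and without CF replicate 3, the dimmest, it was 1.76 (adjusted p = 0.13). Acot1 has close relatives beside it in the genome, among them Acot2, and how far the probe set also reads their RNA was not measured.

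Acsl4 encodes an acyl-CoA synthetase that prefers arachidonic acid. It read 160, 112 and 218 in controls and 256, 295 and 204 in CF. The groups overlapped, as CF replicate 3 lay below control replicate 3 (log2 difference 0.66 ± 0.38, 95% interval -0.21 to 1.53, adjusted p = 0.76). Scp2 encodes the sterol carrier protein 2 and a peroxisomal thiolase joined to it, and had 2 probe sets that both pointed lower in CF. The first (93278_at) read 1112, 506 and 1320 in controls and 262, 301 and 831 in CF. The low values were those of CF replicates 1 and 2 and of control replicate 2, so the groups overlapped (log2 difference -1.17 ± 0.50, 95% interval -2.29 to -0.04, adjusted p = 0.67). The second (95787_s_at) read 1058, 582 and 713 in controls and 509, 464 and 650 in CF (-0.51 ± 0.27, adjusted p = 0.73), and differed by -0.27 without control replicate 1. The unadjusted p of the first was 0.043, and lay between 0.11 and 0.15 without control replicate 1 or 3 or CF replicate 1 or 2. Both probe sets read control replicate 2 as the lowest control and CF replicate 3 as the highest CF mouse. Fabp1, the fatty acid binding protein of liver and gut, was too dim to test, with its highest reading at 89.5 over both probe sets.

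**Figure D1:**
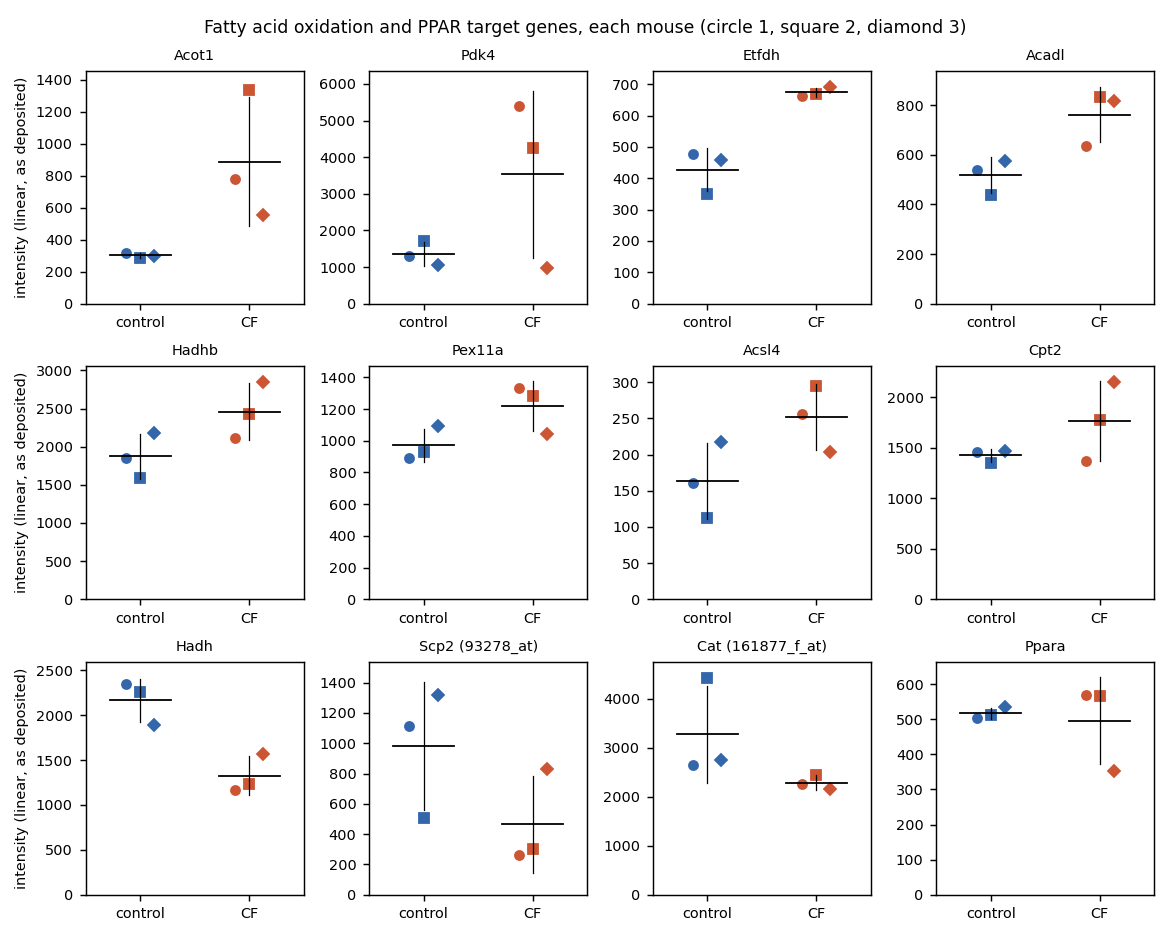
Deposited intensity (linear scale from 0) of 12 members, with a point for each of the 3 control mice and 3 CF mice, a horizontal bar at the group mean and a vertical line for the SD. A member with several tested probe sets is shown by the one of smallest p. Acot1, Etfdh and Acadl are higher in all 3 CF mice, and Pdk4 in CF ranges from 983 to 5384. Hadh and Cat (161877_f_at) are lower in all 3, while the other Cat probe set, not shown, overlapped.

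Within the mitochondrial cycle, the members did not share a direction. Of 9 genes tested, 5 had a difference above 0 and 4 below 0, with a median of 0.05 on the log2 scale. Acadl, the long-chain acyl-CoA dehydrogenase of the first step, read 538, 436 and 576 in controls and 635, 833 and 818 in CF. The CF mice lay above all controls, by a small margin for CF replicate 1 (log2 difference 0.56 ± 0.22, 95% interval 0.06 to 1.06, adjusted p = 0.65). Its unadjusted p was 0.033, and lay between 0.055 and 0.098 without control replicate 1 or 2 or CF replicate 2 or 3. Hadhb, the thiolase subunit of the trifunctional protein, read 1848, 1595 and 2177 in controls and 2111, 2425 and 2847 in CF. Only control replicate 3 exceeded a CF mouse (0.40 ± 0.19, adjusted p = 0.70).

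Hadh, the dehydrogenase of the third step for short and medium chains, ran the other way. It read 2346, 2260 and 1895 in controls and 1166, 1236 and 1572 in CF, with no overlap. The log2 difference was -0.72 ± 0.18 (95% interval -1.13 to -0.30, adjusted p = 0.30, unadjusted p = 0.0037), and lay between -0.85 and -0.63 over all alternatives. Hadh is also known for its high expression in insulin-producing cells. Summed over 6 islet genes, the islet signal read 18573, 76792 and 52657 in controls and 21588, 35062 and 58811 in CF, which overlapped, and its part in the Hadh values was not tested.

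The remaining enzymes of the cycle overlapped between the groups. They comprised Acadm and Acads, the dehydrogenases for medium and short chains, the hydratase Echs1, the thiolase Acaa2, and Eci1 and Decr1, which prepare unsaturated chains. Their differences ran from -0.25 ± 0.32 for Decr1 to 0.24 ± 0.37 for Echs1. Echs1 read 1273, 418 and 809 in controls and 845, 791 and 1068 in CF, so its widest gap was between control mice. Acadm likewise had its lowest value, 889, in control replicate 2 against 1704 and 1861 in the other controls. Both probe sets of Acadvl, the very long chain dehydrogenase, lay below the floor of 47.6 except for a reading of 82.1 in CF replicate 1, so the array gave no measure of it.

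The electron transfer flavoprotein and its oxidoreductase take up the electrons of the first step. Etfdh, the oxidoreductase that hands them to ubiquinone, read 476, 349 and 458 in controls and 663, 670 and 691 in CF. The CF mice lay within a narrow band above all controls (log2 difference 0.67 ± 0.22, 95% interval 0.18 to 1.17, adjusted p = 0.52). Etfa, the alpha subunit, overlapped (-0.11 ± 0.20, 95% interval -0.55 to 0.34). The probe sets of the beta subunit Etfb differed in sign. The brighter (96947_at) read 2163, 2964 and 2639 in controls and 2213, 3162 and 2728 in CF (0.06 ± 0.19), where each CF value was close to the control of the same title suffix. The dimmer (162144_at) read 818, 999 and 584 in controls and 683, 583 and 603 in CF (-0.33 ± 0.24).

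Of the carnitine shuttle, 4 genes were tested and 0 separated the groups. Over all genes tested, 7.34% had all CF mice above all controls and 5.88% had them all below, so 4 genes are too few to differ from that. Cpt1a, which starts the shuttle at the outer membrane and limits its rate, read 2386, 2854 and 2768 in controls and 2432, 3463 and 3128 in CF (log2 difference 0.16 ± 0.18, 95% interval -0.24 to 0.56, adjusted p = 0.89). Cpt2, which rebuilds acyl-CoA on the inner side, read 1456, 1351 and 1472 in controls and 1365, 1772 and 2152 in CF (0.28 ± 0.20, adjusted p = 0.81). CF replicate 1 stayed within the control range while the other CF mice were above it. The carnitine acetyltransferase Crat and the inner membrane carrier Slc25a20 differed by 0.09 ± 0.25 and -0.02 ± 0.24.

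**Figure D2:**
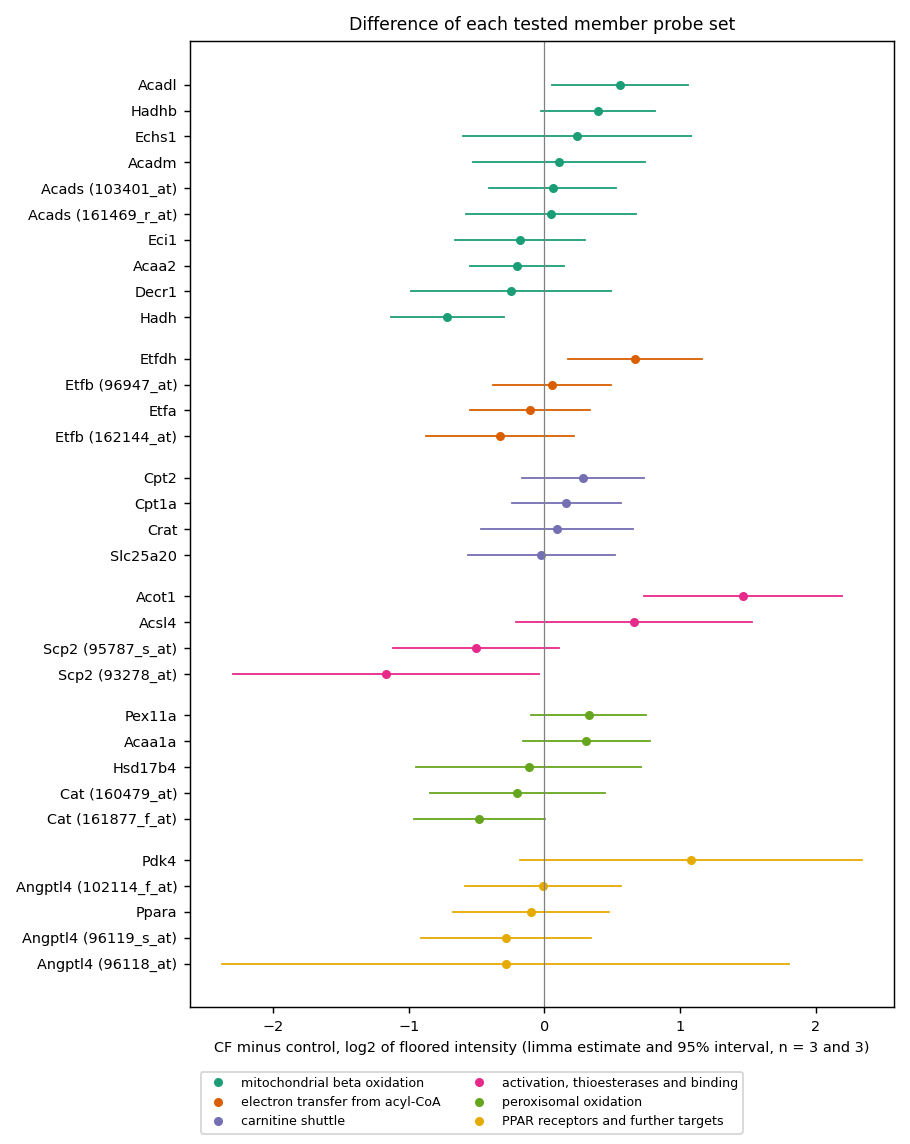
CF minus control difference of the 32 tested member probe sets on the log2 scale, grouped by role, with the limma estimate as a point and its 95% interval as a line (3 mice per group). The points spread to both sides of 0 within most roles, from -1.17 for an Scp2 probe set to 1.46 for Acot1.

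Among peroxisomal genes, Cat, the catalase, was lower in every CF mouse on its brighter probe set (161877_f_at). That probe set read 2655, 4421 and 2759 in controls and 2261, 2451 and 2156 in CF (log2 difference -0.48 ± 0.21, 95% interval -0.96 to 0.00, adjusted p = 0.67). Without control replicate 2, the brightest, the difference was -0.24. The dimmer probe set (160479_at) read 1050, 545 and 863 in controls and 610, 609 and 877 in CF and overlapped (-0.20 ± 0.29), with control replicate 2 now the lowest of all mice. The 2 probe sets for Cat thus ordered the control mice differently.

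Pex11a, which drives peroxisome division and is induced by PPAR alpha agonists, read 894, 926 and 1093 in controls and 1332, 1285 and 1042 in CF. CF replicate 3 fell among the controls (0.33 ± 0.19, adjusted p = 0.75). Acaa1a, the peroxisomal thiolase, read 1616, 1293 and 2157 in controls and 1920, 2037 and 2189 in CF (0.31 ± 0.21, adjusted p = 0.80). Hsd17b4, the peroxisomal bifunctional enzyme of branched and very long chains, differed by -0.12 ± 0.37. Ehhadh, the bifunctional enzyme for straight chains and a strong PPAR alpha target in liver, was too dim to test, reading 75.4 to 125 in controls and 97.3 to 114 in CF.

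Ppara read 504, 513 and 535 in controls and 568, 565 and 352 in CF. Both CF replicates 1 and 2 were slightly above the controls and CF replicate 3 was below them (log2 difference -0.10 ± 0.25, 95% interval -0.67 to 0.48, adjusted p = 0.96). Ppard was too dim to test, reading 63.7, 66.9 and 282 in controls and 57.8, 72.7 and 53.4 in CF. Its single bright reading came from control replicate 3.

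Pdk4 encodes the kinase that switches off pyruvate dehydrogenase and so spares glucose while fat is burnt, and it is known to climb in fasting tissue. It read 1299, 1722 and 1058 in controls and 5384, 4239 and 983 in CF. CF replicates 1 and 2 were above every control and CF replicate 3 was below every control (log2 difference 1.08 ± 0.56, 95% interval -0.18 to 2.35, adjusted p = 0.72). Without CF replicate 3 the difference was 1.84 (adjusted p = 0.065), and without CF replicate 1 it was 0.62 (adjusted p = 0.90), within a range of adjusted p from 0.065 to 1.00 over its alternatives. CF replicate 3 was the lowest CF mouse in 11 of the 32 tested member probe sets (34.4%, against 35.2% of all probe sets) and the highest in 13 (40.6%, against 34.9%).

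The remaining PPAR targets gave no common direction. Angptl4, a secreted inhibitor of lipoprotein lipase, had 3 probe sets bright enough to test, with differences of -0.01 ± 0.25, -0.28 ± 0.28 and -0.29 ± 0.92. The last of these (96118_at) read 572, 307 and 110 in controls and 183, 885 and 65.6 in CF, so mice of the same group differed more than the groups did. Cyp4a10, a fatty acid hydroxylase of liver and kidney, was too dim to test, at 74.2 to 89.6 in controls and 10.4 to 86.2 in CF.

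Counted together, 0 of the 32 tested member probe sets were called, where the study-wide rate was 0.0646%, or 5 of 7739. In 3 probe sets (9.38%) all CF mice lay above all controls, against 7.37% of all probe sets tested, and in 2 (6.25%) all CF mice lay below, against 5.62%. At an unadjusted p under 0.05, limma gave 3 members higher in CF (9.38%, against 4.26%) and 2 lower (6.25%, against 3.11%). The shares without overlap lie near the background. Those by unadjusted p lie above it, but rest on 3 and 2 probe sets, too few to read as a difference. The 3 higher ones were Acot1, Etfdh and Acadl by both counts, and the lower ones were Hadh with Cat by overlap and Hadh with Scp2 by p. Over the 26 member genes tested, 15 had a difference above 0 and 11 below 0, and the median was 0.08 on the log2 scale, against 0.00 over all 5804 genes tested. The filter kept a probe set if at least 3 of 6 arrays exceeded 140.2, and 0 of the 32 passed through a single group.

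The counts without overlap moved when a mouse was left out, as fewer mice also make overlap less likely. Members higher in CF numbered 7 without control replicate 3 (21.9%, against 12.6% of all probe sets tested without that mouse), 6 without CF replicate 1 (18.8%, against 12.3%) and 7 without CF replicate 3 (21.9%, against 13.7%). Those lower in CF numbered 6 without control replicate 2 (18.8%, against 11.7%) and 6 without CF replicate 3 (18.8%, against 12.8%). At an unadjusted p under 0.05, 5 were higher without control replicate 3 (15.6%, against 4.38%) or without CF replicate 1 (15.6%, against 3.19%), and 2 without control replicate 1 or 2 or CF replicate 2 (6.25%, against 4.29%, 4.53% and 2.35%). A single lower member, Hadh, was left without CF replicate 1 or 2 (3.12%, against 3.24% and 2.19%), which is near the background. With the title suffix as a replicate block, limma gave 5 members higher in CF (15.6%, against 6.06% of all probe sets in that fit) and 3 lower (9.38%, against 5.67%) at an unadjusted p under 0.05, and still 0 past the threshold, which 10 of all probe sets passed. The added ones were Hadhb (adjusted p = 0.37) and Pdk4 (adjusted p = 0.37), both higher, and Cat (adjusted p = 0.36), lower.

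**Figure D3:**
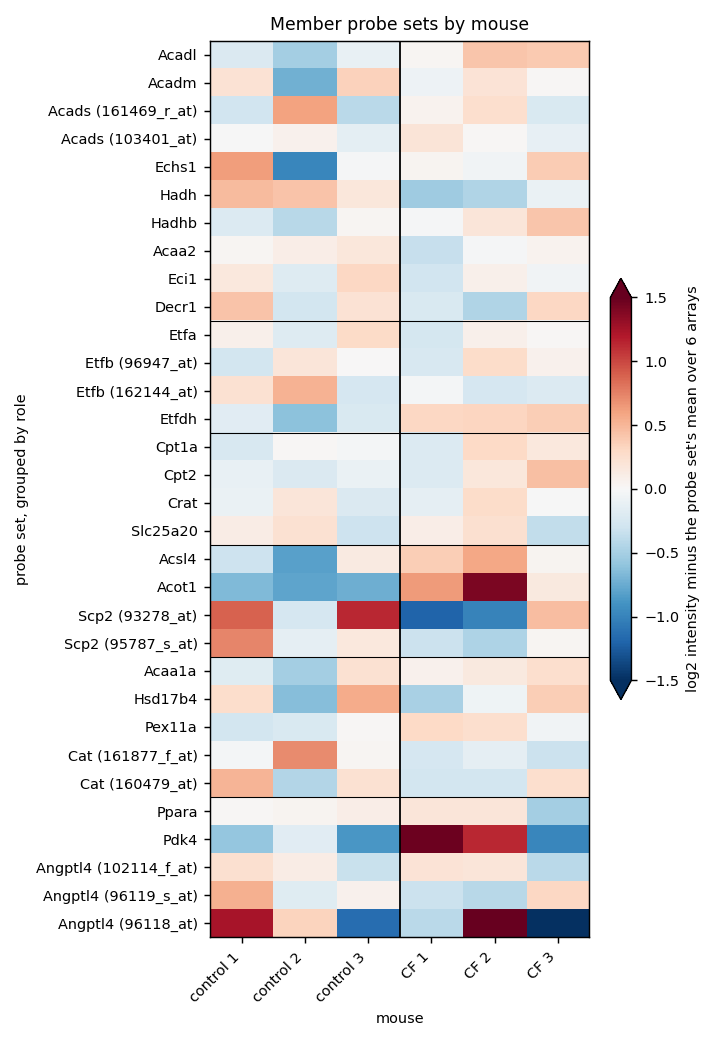
Log2 intensity of the 32 tested member probe sets in each of the 6 mice, as the deviation from the probe set's mean over all mice (red above, blue below, colours end at 1.5 either way), grouped by role. Control 2 is blue for Echs1, Acadm and Etfdh and red for Cat (161877_f_at), and Pdk4 is red in CF 1 and 2 and blue in CF 3.

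Control replicate 2 and CF replicate 1 were the lowest of their group in a larger share of member probe sets than of all probe sets. These shares were not tested, and some genes count with more than 1 probe set. Control replicate 2 was the lowest control in 17 of the 32 member probe sets (53.1%), against 38.6% of all probe sets tested, among them Echs1, Acadm, Acadl, Hsd17b4, Hadhb, Etfdh and both of Scp2. It was the highest control in 9 (28.1%, against 37.3%). CF replicate 1 was the lowest CF mouse in 15 (46.9%, against 31.9%), among them Hadh, Acadl, Hadhb and Cpt2, and the highest in 6 (18.8%, against 33.2%). The median deviation of the 26 genes from their mean over all mice ran, in replicate order, -0.06, -0.20 and 0.02 for the controls and -0.04, 0.19 and 0.03 for the CF mice. The median SD within a group was 0.29 for controls and 0.25 for CF over the member probe sets, and 0.32 and 0.30 over all probe sets.

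Other genes of fat metabolism were not called either, but calls were rare throughout, at 3 of all 5804 genes tested. Of 63 further genes tested, 0 passed the threshold. Among them, 6 had all CF mice above all controls (9.52%, against 7.34% of all 5804 genes) and 1 had them all below (1.59%, against 5.88%). At an unadjusted limma p under 0.05, 4 were higher in CF (6.35%, against 4.34%) and 1 was lower (1.59%, against 3.15%). Their median log2 difference was 0.01, with 32 genes above 0 and 31 below. By list, medians were -0.24 for 8 genes of fatty acid uptake and activation, 0.17 for 12 further mitochondrial acyl-CoA enzymes, 0.14 for 13 further peroxisomal genes, 0.11 for 7 receptors and coactivators, 0.01 for 13 further PPAR targets and -0.16 for 10 genes of fatty acid synthesis. A single ketone body gene was tested, at -0.22.

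The further genes whose groups did not overlap included several neighbours of the members in the pathway. Ivd, the dehydrogenase of leucine breakdown that also feeds the electron transfer flavoprotein, read 766, 604 and 857 in controls and 1224, 1060 and 901 in CF (log2 difference 0.52 ± 0.21, adjusted p = 0.66). Eci2, an isomerase for unsaturated chains, read 880.4, 632 and 872 in controls and 1003, 1075 and 919 in CF (0.34 ± 0.20, adjusted p = 0.76). Phyh, which starts the peroxisomal breakdown of phytanic acid, read 846, 889 and 844 in controls and 1025, 1614 and 1112 in CF (0.51 ± 0.21, adjusted p = 0.67). Naming only genes without overlap puts every CF mouse on the same side of the controls, but does not fix which side. The 1 further gene with all CF mice below all controls was Pex14, on its brightest probe set. It was not among the 3 of smallest p of its list. Pex14 read 4168, 5215 and 4410 in controls and 4144.5, 4002 and 4107 in CF (-0.164 ± 0.145, adjusted p = 0.85). In the list of Ivd and Eci2, 7 genes lay above 0 and 5 below. Pccb, of that list, read 1287, 792 and 1335 in controls and 564, 771 and 810 in CF. Its groups overlapped (-0.65 ± 0.26, adjusted p = 0.65).

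Outside oxidation, Gpam, the acyltransferase that begins glycerolipid synthesis, read 1291, 1073 and 1227 in controls and 2087, 1488 and 1648 in CF (0.53 ± 0.19, adjusted p = 0.57). In its list of fatty acid synthesis, 4 genes lay above 0 and 6 below. The lowest was Scd1 (-1.72 ± 1.04, adjusted p = 0.77), whose groups overlapped. Esrra, a nuclear receptor that controls mitochondrial genes, read 870, 932 and 897 in controls and 1107, 1226 and 1006 in CF (0.30 ± 0.17, adjusted p = 0.75). In the list of Esrra, 5 genes lay above 0 and 2 below. The highest was Nr1h3 (0.95 ± 0.37, adjusted p = 0.645), whose groups overlapped. Pex6, which recycles the peroxisomal import receptor, differed by 0.28 ± 0.20.

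Fat cells and other cell types that also hold these transcripts varied between the mice. Summed over 9 adipocyte genes, the signal read 18634, 5639 and 9046 in controls and 6163, 4100 and 4103 in CF. The groups overlapped, as control replicate 2 lay below CF replicate 1. Control replicate 1, the highest, is the mouse whose label names the entire pancreas. Of these 9 genes, 8 were tested, and 7 lay below 0. Adipoq, the defining hormone, read 5591, 187 and 1899 in controls and 721, 54.2 and 58.2 in CF. Lep, also below 0, read 2878, 3941 and 3127 in controls and 3231, 3032 and 2774.5 in CF (-0.13 ± 0.17). Lep made up most of the sum in control replicate 2 and CF replicates 2 and 3, where Adipoq was lowest. The sum thus shows the spread of Adipoq between mice only in part. The macrophage sum of 7 genes ranged over 3446 to 6792 in controls and 2455 to 3258 in CF, and the groups did not overlap. The B cell sum of 5 genes ranged over 4499 to 9335 and 2419 to 5371, and the duct sum of 8 genes over 14530 to 19752 and 18506 to 22647. Of the marker genes tested, 6 of 6 for macrophages and 5 of 5 for B cells had a difference below 0, with medians of -0.85 and -0.78. All 7 duct genes tested had a difference above 0, with a median of 0.62, and in 4 of them all CF mice lay above all controls. The lowest adjusted p among the duct genes was 0.11, for Elf3, an epithelial transcription factor. Genes of hepatocytes, which are rich in PPAR targets, summed to 2404 to 4001 over 9 genes in controls and 1963 to 3254 in CF. Fgb lay at the floor on all arrays. All 5 hepatocyte genes tested had a difference below 0, with a median of -0.45. The part of these cells in the members' values was not tested. Without control replicate 1 the differences of Acot1, Etfdh, Acadl and Hadh were 1.50, 0.76, 0.59 and -0.66.

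**Figure D4:**
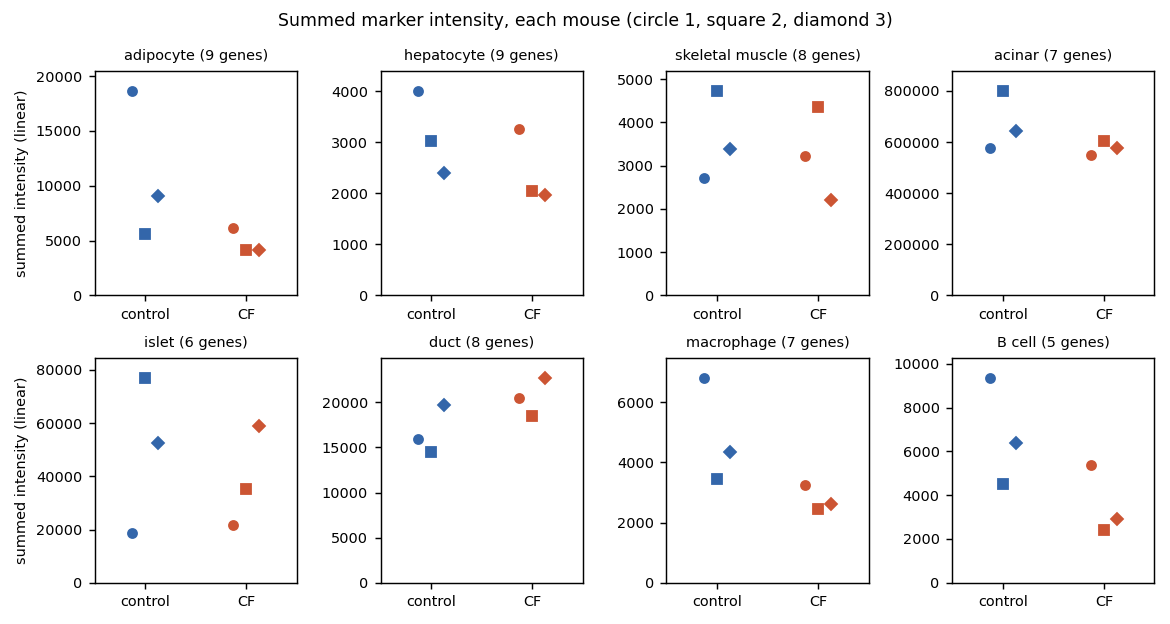
Summed deposited intensity (linear scale from 0) of marker genes of 8 cell types, with a point for each control and CF mouse. The adipocyte and macrophage sums are highest in control replicate 1, at 18634 and 6792. The acinar sums over 7 genes are 577925 to 799539 in controls and 548349 to 603804.5 in CF.

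Across the arrays, medians lay between 208 and 234 intensity units. All 7 acinar markers on the array were bright enough to be tested, and all 7 had a difference below 0, with a median of -0.24. Their sum ranged over 577925 to 799539 in controls and 548349 to 603804.5 in CF, so the groups overlapped. Its part in the members' values was not tested. The Cftr probe set bright enough to test read 223 to 339 in controls and 314 to 467 in CF, and the other Cftr probe sets lay below the floor. The labels and annotation do not place them inside or outside the disrupted stretch, so genotypes were not checked by expression and rest on the labels.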

How the data were processed

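The authors deposited 1 linear intensity for each probe set and array. The sources used here name neither the software nor a scaling target. Means without the lowest and highest 2% were 499.79 to 499.91 on all arrays, so arrays were taken as scaled. Probe sets were named through the platform annotation and RefSeq gene names (GRCm38.p6, 10839 matched by gene identifier), and 66 control probe sets were left out.

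Intensities were floored at the 20th percentile over all arrays (47.6) and taken to log2, and probe sets with at least 3 of 6 arrays above the pooled 40th percentile (140.2) were tested. The fit used lmFit and trended eBayes of limma 3.58.1 under R 4.3.3. P-values were adjusted by Benjamini-Hochberg over all 7739 probe sets, threshold 0.05. Folds are on this floored scale and understate changes of dim genes. Gene counts and medians use the probe set of highest mean log2 value. Each array held 1 mouse, so p-values measure the spread between 3 mice a group. The fit was tested on simulated data.

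The members and lists were chosen with earlier results of these data known, so no p over the list is given. All-array values are given for members whose groups do not overlap, the 12 of smallest p, Ppara, Ppard, Pdk4 and members whose tested probe sets differ in sign. Echs1, Acadm, Cpt1a, Pccb, Pex14, Scd1, Nr1h3, Adipoq, Lep, Elf3 and 1 Angptl4 probe set were added after their values were seen. Further pathway genes are otherwise named if among the 3 of smallest p of their list and not overlapping. Pmp22, a myelin protein gene put in the peroxisomal list by mistake, was left out of the counts.

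Mice with the same title suffix deviated together from their group means (r of 0.23 to 0.26), and r was -0.18 to -0.05 between others. Deviations sum to 0 within a group, so positive same-suffix values make the others negative on average. The negative values are thus not separate evidence. The suffix was therefore tried as a pairing in the alternative fit with a replicate block, although the labels do not say what it marks. The main fit did not use it, so the SEs, intervals and p-values given without mention of the block are unpaired.

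Promoter windows came from RefSeq and were matched by symbol with Python 3.11.15.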

Additional observations from a re-analysis of the deposited data

How the results depend on the processing

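With 3 mice a group, only large differences could pass the threshold, and dim members gave no measure. Over all probe sets, 5 passed; the number was 8 with median scaling, 10 with a floor at the 40th percentile, 0 without a filter, 3 without an intensity trend, 12 with array weights, 10 with the replicate block, and 1 to 10 when a mouse was left out (1 without CF replicate 1 or 2, 8 without CF replicate 3, 10 without control replicate 2). Members past the threshold, and further pathway genes past it, numbered 0 in every alternative run. Leaving out a mouse gave 3 to 7 members without overlap higher in CF and 2 to 6 lower, where all probe sets gave 11% to 13.7% and 8.74% to 12.8%. At an unadjusted limma p under 0.05 it gave 2 to 5 and 1 to 3 of 32, where all probe sets gave 2.35% to 4.53% and 2.16% to 4.55%. By that p, the replicate block gave 5 higher (15.6%, against 6.06%). Omitting the filter gave 1 lower (2.33%, against 2.56%), as did omitting the trend (3.12%, against 2.97%). The members' median ranged from -0.042 (without CF replicate 2) to 0.177 (without CF replicate 1).

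Differences near 0 changed sign. With array weights they were -0.06 for Acadm, -0.018 for Echs1, 0.071 for Slc25a20 and 0.053 for Angptl4 (102114_f_at). With a mouse left out they ranged from -0.228 to 0.305 for Acadm, -0.139 to 0.365 and -0.022 to 0.137 for the Acads probe sets, -0.184 to 0.62 for Echs1, -0.231 to 0.007 for Etfa, -0.066 to 0.194 for Etfb (96947_at), -0.022 to 0.209 for Crat, -0.181 to 0.16 for Slc25a20, -0.465 to 0.131 for Hsd17b4, -0.469 to 0.004 for Cat (160479_at), -0.214 to 0.132 for Ppara, and -0.184 to 0.187 and -1.291 to 0.586 for Angptl4 (102114_f_at and 96118_at). The cause was not tested.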
